A study of Mus musculus with 6 samples.

Results

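Ribosomal proteins of the cytosolic ribosome were followed in quadriceps femoris, a thigh muscle, of Prr14-WT and Prr14-KO mice. The set holds every gene of the deposited table whose symbol follows the naming pattern of these proteins (Rpl or Rps with a number and an optional paralog letter, Rplp0 to Rplp2, Rpsa). It has 83 of 22036 genes, 52 of the large subunit and 31 of the small subunit. PRR14 links heterochromatin to the nuclear lamina. Total RNA of 3 wild-type (WT) and 3 knockout (KO) libraries was read as amplified nanopore cDNA. The labels used here state no age, sex, strain or kind of knockout allele, and do not say whether each library is a separate animal, so the p-values cover the spread of these libraries, which may be technical.

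The cytosolic ribosome is built from ribosomal RNA and one copy of most of its proteins, and the large subunit forms peptide bonds while the small subunit reads the mRNA. Most ribosomal protein mRNAs begin with a run of pyrimidines, the 5′ TOP element, through which mTORC1 and LARP1 set their translation together. Striated muscle also expresses a paralog of Rpl3, the large subunit protein next to the peptidyl transferase centre, named Rpl3l.

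The sequences that bear on counting and on the TOP element are shown first. The first 60 bases of the coding sequences of Rpl3 (chromosome 15) and Rpl3l (chromosome 17) are printed from GENCODE M21, because the comparison of the pair rests on reads being told apart; capitals mark the 13 positions at which they differ.
Rpl3: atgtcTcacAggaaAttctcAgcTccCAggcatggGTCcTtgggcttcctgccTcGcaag
Rpl3l: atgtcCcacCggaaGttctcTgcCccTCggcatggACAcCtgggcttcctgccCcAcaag
Over 1206 aligned coding bases the pair was 74.3% identical. Identity was 70.2% for Rpl22 and Rpl22l1, 76.2% for Rps27 and Rps27l and 87.7% for Rpl36a and Rpl36al. Rps27 (chromosome 3) and its retrogene Rps27rt (chromosome 9, outside the naming pattern) had coding sequences that were 100% identical over 252 bases, so the authors' counting could have split reads between these genes and the level of Rps27 is uncertain. Processed pseudogenes of other members can take reads in the same way.

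RefSeq start windows (GRCm38.p6) are printed next, because the TOP element lies at the start of the mRNA and its letters can be read there for members described below. Each runs from 10 bases before the annotated start to 20 bases from it, on the gene's own strand, and capitals mark the longest run of C and T.
Rps6, chr4:86857348-86857377, minus strand: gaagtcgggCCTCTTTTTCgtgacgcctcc
Rpl38, chr11:114668570-114668599, plus strand: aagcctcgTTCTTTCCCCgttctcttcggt
Rplp2, chr7:141447641-141447670, plus strand: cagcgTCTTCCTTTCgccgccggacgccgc
Rpl22l1, chr3:28805498-28805527, plus strand: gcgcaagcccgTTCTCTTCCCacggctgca
Rpl3l, chr17:24727816-24727845, plus strand: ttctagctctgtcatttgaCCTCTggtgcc
The runs of Rps6, Rpl38, Rplp2 and Rpl22l1 are 10 bases long, and that of Rpl3l is 5, under the minimum of 6 used here. Other members described below were also under it, with runs of 3 bases in Rpl41, Rpl10 and Rpl5 and of 4 in Rps4x. RefSeq windows were matched for 63 of the 83 genes, and 38 of them (60.3%) held a run of at least 6 C or T, against 32.1% of 27025 RefSeq genes. Where a gene had several annotated starts, the longest run over all of them was taken, for members and other genes alike. The share was 57.5% of 40 large subunit genes and 65.2% of 23 small subunit genes. The run was looked for on the sense strand alone, and it is a description of these letters at the annotated starts.

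The listed genes held 1436099 to 1712975 read counts per library. Counts of Prr14 itself were 9, 11 and 12 in the WT libraries and 4, 10 and 3 in the KO libraries (replicates 1 to 3 in order), and the deleted part is not given, so these counts do not check the labels. Levels are CPM on the scale of TMM-normalised library sizes, values of libraries are given in the order of replicates 1 to 3 with SDs as errors, and calls use edgeR's quasi-likelihood test with a Benjamini-Hochberg adjusted p under 0.05 over all 6680 tested genes. Of 5 listed markers of the muscle fibre, 3 passed as lower in KO, where 3.28% of all tested genes did. Log2 fold changes were -1.36 for Myh4, -0.97 for Ttn, -0.66 for Acta1, -0.39 for Tnnt3 and -0.25 for Ckm. Tnnt3 and Ckm did not pass. The summed level of these markers was 132708 to 171227 CPM in WT and 97374 to 112978 in KO. For fibroblast, endothelial, leukocyte, satellite cell, red blood cell, adipocyte and Schwann cell lists 0 genes passed edgeR's test (1 at an unadjusted p under 0.05) and the summed levels of the genotypes overlapped, with no listed marker at 0 in every library. Log2 fold changes were positive for 3 of 6 tested fibroblast, 1 of 5 endothelial, 0 of 3 leukocyte and 0 of 1 satellite cell genes. They were positive for 0 of 5 red blood cell, 2 of 3 adipocyte and 0 of 2 Schwann cell genes. The leukocyte, satellite cell, adipocyte and Schwann cell lists held 6, 4, 4 and 4 genes, so each was tested in part. The median was -0.66 for red blood cell and -0.57 for leukocyte genes. In bulk muscle, fewer cells of a type and less RNA per cell cannot be told apart. The part of these cell types in the ribosomal protein values was not tested.

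On the TMM scale, ribosomal protein mRNAs differed little between WT and KO muscle. Of the 81 members tested, 0 rose and 0 fell (edgeR adjusted p under 0.05), against 6.24% of all genes tested (2.96% higher and 3.28% lower). DESeq2 and limma-voom also called 0 of the 81, against 4.82% and 5.18% of all genes. Before adjustment 6 of the 81 members had an edgeR p under 0.05, all of them higher in KO. Of all tested genes 10.7% were higher at that p, and 20% passed it in either direction. The log2 fold changes of the members lay between -0.34 (Rpl7l1) and 0.35 (Rpl22l1), and 0 of them reached 0.5 in size, against 22.4% of all genes. Their SD across genes was 0.119, against 0.550 for all tested genes. A p that misses the threshold does not show equality, so the intervals carry the result. For 78 of 81 genes the 95% confidence interval lay within -0.5 and 0.5, and Rpl22l1, Rpl38 and Rpl7l1 were the exceptions. The interval lay within these bounds for 1019 of all 6680 tested genes. Outside the members, it did so for 455 of the 966 tested genes of at least 100 CPM.

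**Figure D1:**
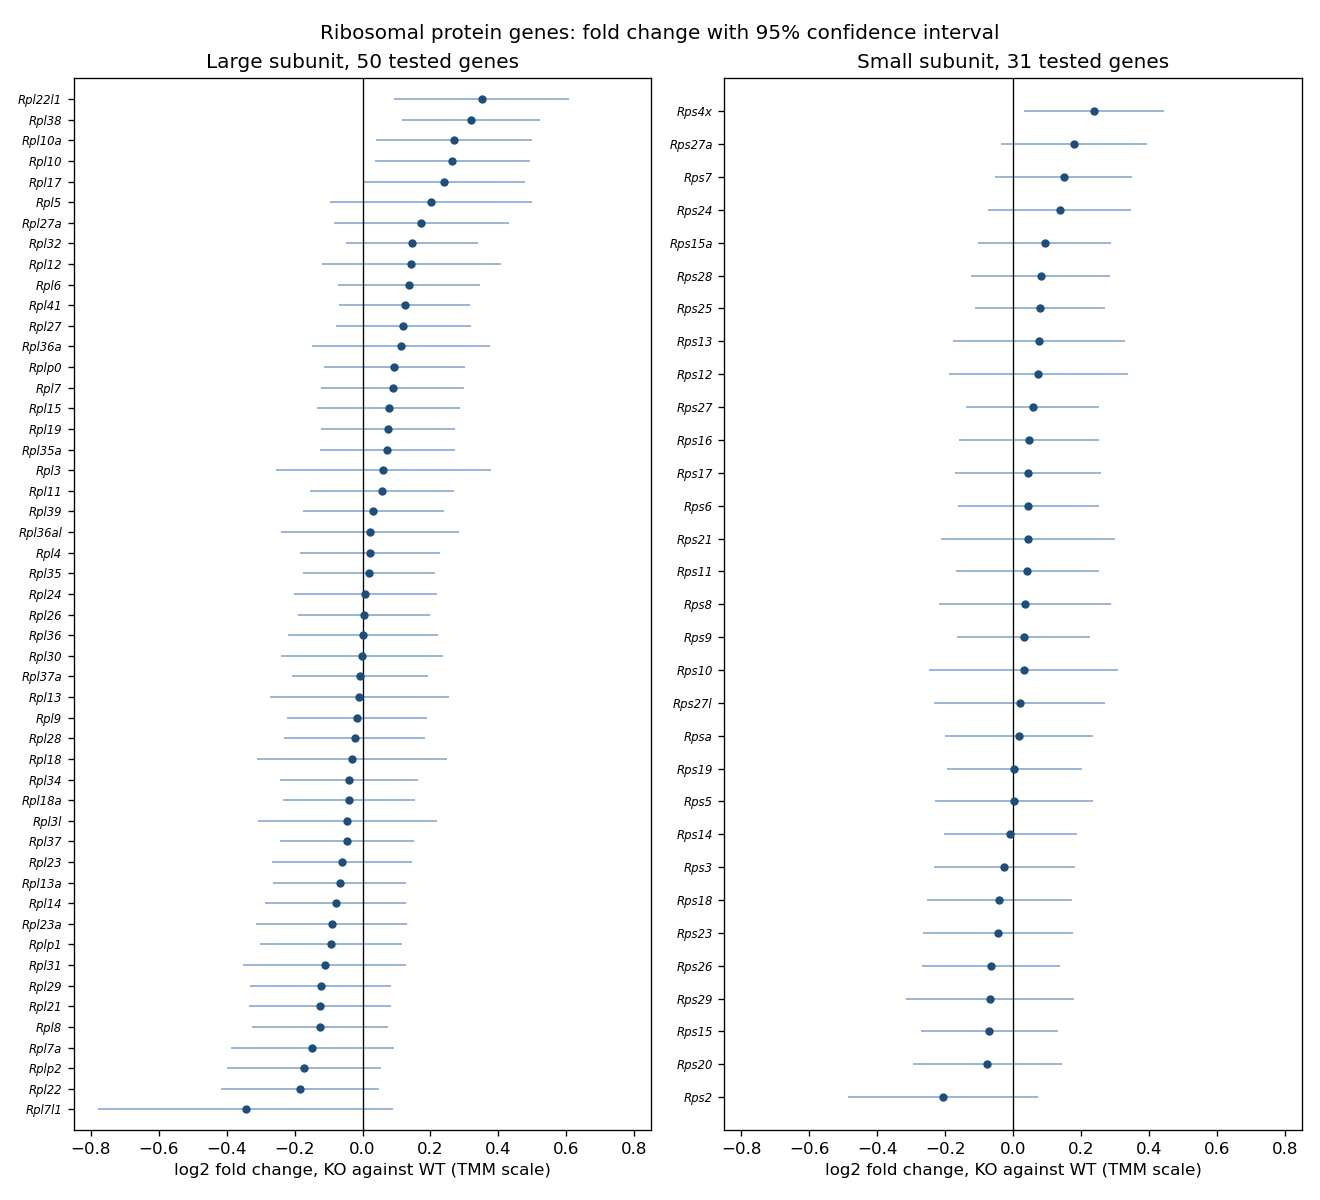
Log2 fold change of KO against WT (x axis, TMM scale) for each tested ribosomal protein gene (rows). Bars are 95% confidence intervals derived from edgeR's F statistic. The 50 large subunit genes are on the left and the 31 small subunit genes on the right. All points lie between -0.34 and 0.35, and the intervals of the 5 highest large subunit genes and of Rps4x exclude 0 before adjustment for multiple tests.

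Both subunits had medians near that of all tested genes. Large subunit genes had a median log2 fold change of 0.01 (50 tested, 27 positive and 23 negative, range -0.34 to 0.35) and small subunit genes one of 0.03 (31 tested, 22 positive and 9 negative, range -0.21 to 0.24), where the median of all tested genes was 0.02. The SD across genes was 0.136 in the large and 0.085 in the small subunit. With library totals in place of TMM, a scale on which the median of all tested genes is 0.25, the medians were 0.24 and 0.27, and 12 large and 6 small subunit genes passed as higher (9.72% of all genes did).

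**Figure D2:**
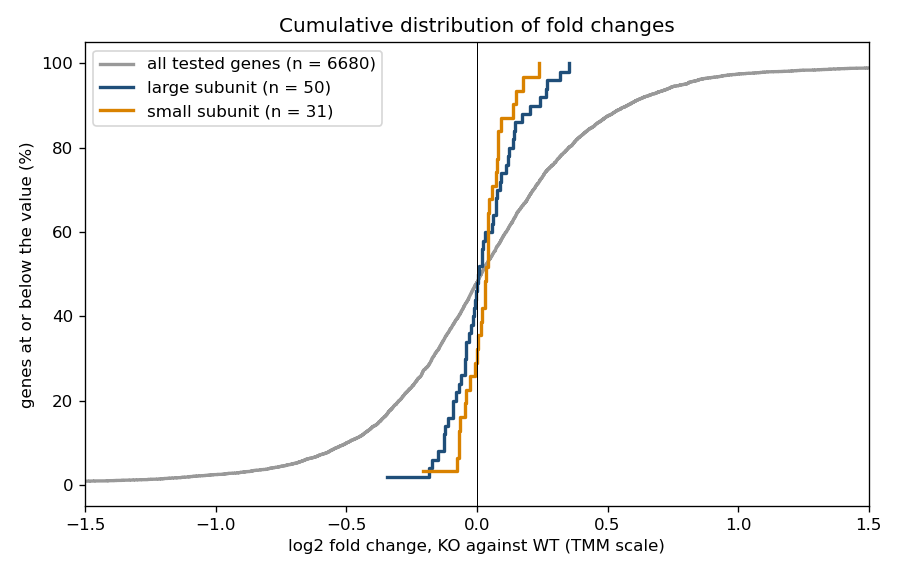
Cumulative share of genes (y axis, %) at or below each log2 fold change (x axis, drawn from -1.5 to 1.5) for all 6680 tested genes, 50 large subunit genes and 31 small subunit genes. The subunit curves climb within -0.34 to 0.35, around medians of 0.01 and 0.03, while the curve of all genes is far wider.

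Summed over members, large subunit genes held 33435 ± 416 CPM in WT and 34145 ± 178 CPM in KO, and small subunit genes 19083 ± 13.1 and 19558 ± 169 CPM. The large subunit sum lay between 33019 and 33851 CPM in the WT libraries and between 34008 and 34347 CPM in the KO libraries. The small subunit sum lay between 19071 and 19097 CPM in WT and between 19385 and 19723 CPM in KO, so the KO libraries were above WT for both subunits. The ratio of large to small subunit counts was 1.75 ± 0.021 in WT and 1.75 ± 0.019 in KO, and its libraries overlapped. As a share of all listed counts the members took 5.04%, 4.92% and 4.58% in the WT libraries and 5.92%, 5.86% and 5.69% in the KO libraries. The 20 most abundant genes, of which 0 are members, took 39.2% to 44.6% of counts in WT and 34.3% to 37.0% in KO. With those 20 genes left out of the total, the members took 8.29 ± 0.016% in WT and 9.01 ± 0.074% in KO.

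**Figure D3:**
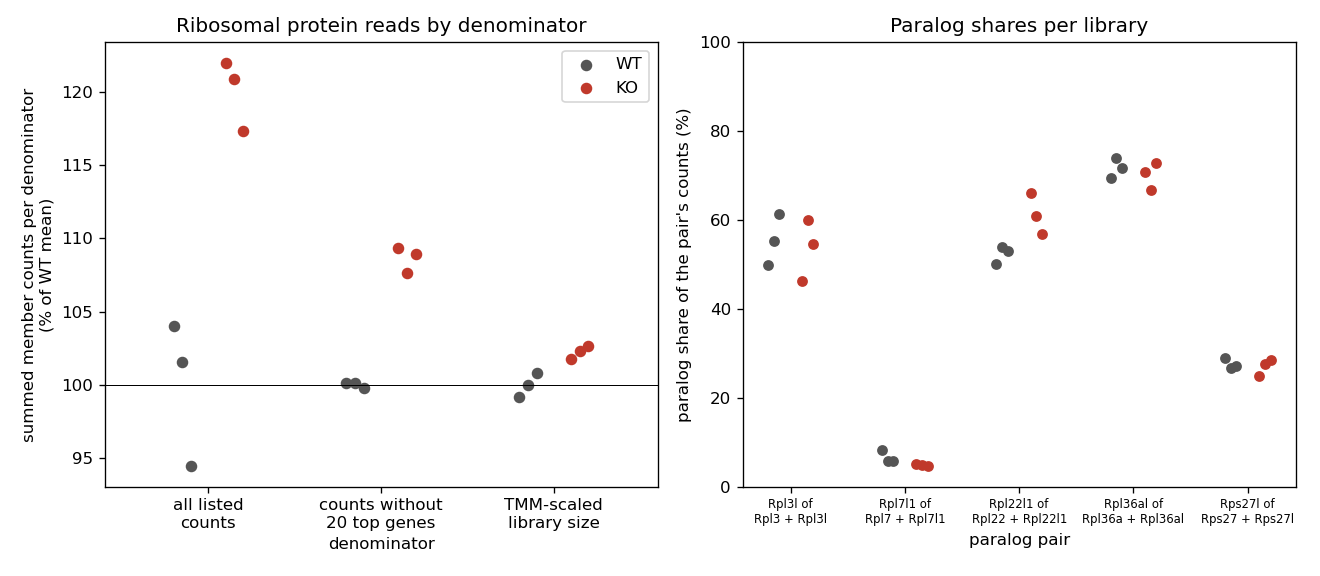
Left, summed ribosomal protein counts per library as a percentage of the WT mean (y axis) under 3 denominators (x axis). WT libraries are grey and KO libraries red. The KO libraries lie above WT under each denominator and closest to WT on the TMM scale (53466 to 53911 against 52101 to 52948 CPM). Before scaling to the WT mean, members held 5.69% to 5.92% of all listed counts in KO and 4.58% to 5.04% in WT. Without the 20 top genes they held 8.92% to 9.07% in KO and 8.27% to 8.30% in WT. Right, share of the paralog in the counts of each pair (y axis, %) in each library; the KO libraries lie above WT for Rpl22l1 (57.0% to 66.0% against 50.2% to 53.9%) and overlap those of WT for Rpl3l (46.4% to 60.04% against 49.9% to 61.4%).

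Rpl3 and its muscle paralog were present at similar levels in both genotypes. Rpl3 (ENSMUSG00000060036, GRCm38 chromosome 15, 80077791 to 80091868, minus strand) stood at 302, 264 and 219 CPM in the WT libraries and at 328, 243 and 249 CPM in the KO libraries. The highest and the lowest of the 6 values belonged to KO replicate 1 and WT replicate 3, and the groups overlapped. Its log2 fold change was 0.06 (SE 0.15, 95% interval -0.26 to 0.38, edgeR adjusted p = 0.874). Rpl3l (ENSMUSG00000002500, chromosome 17, 24727820 to 24736143, plus strand) had 301, 327 and 348 CPM in WT and 284, 365 and 299 CPM in KO replicates 1 to 3. KO replicate 2 was the highest library and KO replicate 1 the lowest, so the KO values spanned those of WT. Its log2 fold change was -0.04 (SE 0.12, 95% interval -0.31 to 0.22, edgeR adjusted p = 0.888), and it turned to 0.19 with library totals.

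The balance of the pair was then taken within each library, which no scaling can change. Rpl3l made up 49.9%, 55.3% and 61.4% of the pair's counts in the WT libraries, and 46.4%, 60.04% and 54.5% in the KO libraries. The means were 55.5 ± 5.71% and 53.7 ± 6.86% (exact two-sided permutation p = 0.7, n = 3 each, where 3 against 3 libraries allow no p under 0.1), a difference smaller than the SD within either genotype. The difference turned positive without WT replicate 3 (1.04 percentage points) and without KO replicate 1 (1.76). Per kb of transcript (1351 bases for Rpl3 and 1375 for Rpl3l) the shares were 55.1 ± 5.72% and 53.2 ± 6.87%. In the counts of bulk muscle, Rpl3l and Rpl3 were thus each near an even share of the pair in both genotypes. The share mixes the cell types of the muscle, and their part in it was not tested.

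Among the other paralogs, the pair of Rpl22 and Rpl22l1 differed most between genotypes. RPL22 is an RNA-binding protein of the large subunit that is known to repress the mRNA of its paralog Rpl22l1. Rpl22l1 (ENSMUSG00000039221, chromosome 3, 28805436 to 28807424, plus strand) had 347, 398 and 354 CPM in WT and 535, 462 and 407 CPM in KO replicates 1 to 3. Every KO library was above every WT library, though the highest WT and the lowest KO library were close. The log2 fold change was 0.35 (SE 0.12, 95% interval 0.09 to 0.61) and did not pass (edgeR adjusted p = 0.105). Rpl22 (ENSMUSG00000028936, chromosome 4, 152325742 to 152334071, plus strand) had 345, 341 and 314 CPM in WT and 275, 297 and 307 CPM in KO, and every KO library was below every WT library. Its log2 fold change was -0.18 (SE 0.11, 95% interval -0.42 to 0.05, edgeR adjusted p = 0.387), and 0.04 with library totals. Rpl22l1 made up 52.4 ± 1.96% of the pair's counts in WT and 61.3 ± 4.56% in KO, higher in 3 of 3 KO libraries, and a two-sided exact permutation test gave p = 0.1, which is the lowest it can reach here, or 0.25 adjusted over the 5 pairs tested.

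In the pair with Rpl7 the KO libraries also lay apart from WT. Rpl7l1 had 41.7, 32.3 and 31.0 CPM in WT and 28.4, 27.7 and 26.5 CPM in KO, the lowest levels of the tested members, and took 6.59 ± 1.40% of the counts of the pair with Rpl7 in WT and 4.93 ± 0.193% in KO (permutation test, exact and two-sided: p = 0.1, adjusted 0.25). At these counts the 95% interval of its log2 fold change ran from -0.78 to 0.09, the widest of the set. Rpl36al, an autosomal paralog of the X-linked Rpl36a, took 71.7 ± 2.26% and 70.2 ± 3.0% (exact p = 0.6), and Rps27l, a known p53 target, took 27.6 ± 1.11% and 27.1 ± 1.85% (exact p = 0.8) of the counts of the pair with Rps27. Reads listed for Rps27rt, which may come from Rps27, are not in this pair, so the share of Rps27l is uncertain too. The testis-expressed paralogs were at or near 0: Rpl10l had 0 counts in all 6 libraries, and Rpl39l had 4, 1 and 0 counts in WT and 1, 1 and 3 in KO. These 2 genes are the members left untested. Rpl39, the widely expressed partner of Rpl39l, was at 545 ± 28.9 CPM in WT and at 557 ± 16.1 CPM in KO.

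The genes with the highest fold changes were mostly of the large subunit, which holds 50 of the 81 tested members. Rpl38, which is required for the translation of a subset of Hox mRNAs in the embryo, stood at 784, 876 and 841 CPM in the WT libraries and at 994, 1061 and 1067 CPM in the KO libraries (chromosome 11, 114668524 to 114672331, plus strand). The groups did not overlap and were separated by more than the range within either of them. Its log2 fold change of 0.32 (SE 0.09, 95% interval 0.12 to 0.52) came closest to the threshold (edgeR adjusted p = 0.0615), and it passed without KO replicate 1 (adjusted p = 0.029) and with library totals.
Rpl10a had 501, 511 and 535 CPM in WT and 700.4, 600.4 and 563 CPM in KO. Rpl10, which joins the large subunit late in its maturation, had 599, 586 and 647 CPM in WT and 809.6, 650.3 and 740.2 CPM in KO. In both genes KO replicate 1 was highest and every KO library lay above WT, for Rpl10 by a narrow margin. Their log2 fold changes were 0.27 and 0.26 (edgeR adjusted p = 0.172 and 0.179). Rpl17 went from 252 ± 12.6 to 298 ± 17.1 CPM (log2 fold change 0.24, edgeR adjusted p = 0.244).

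In the small subunit the X-linked Rps4x had 578, 534 and 557 CPM in WT and 693, 636 and 639 CPM in KO, with no overlap, and edgeR's adjusted p was 0.182 at a log2 fold change of 0.24 (SE 0.10). Rps27a, which is made as a fusion with ubiquitin, had 579.8, 570.5 and 549 CPM in WT and 704, 609.6 and 609.8 CPM in KO, also without overlap (log2 fold change 0.18, edgeR adjusted p = 0.36). Rps7, Rps24 and Rps15a followed at 0.15, 0.14 and 0.09. At the other end Rps2, a protein at the mRNA entry side of the small subunit, had 550.3, 612 and 573 CPM in WT and 402, 599.8 and 501 CPM in KO. KO replicate 2 lay among the WT libraries and KO replicate 1 far below them, and edgeR gave an adjusted p of 0.426 for a log2 fold change of -0.21 (SE 0.13). The value was -0.07 without KO replicate 1 and -0.36 without KO replicate 2. Rps20, Rps15, Rps29 and Rps26 had log2 fold changes between -0.08 and -0.06. These 5 and, in the large subunit, Rpl7a and Rpl8 (-0.15 and -0.13) turned positive with library totals.

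**Figure D4:**
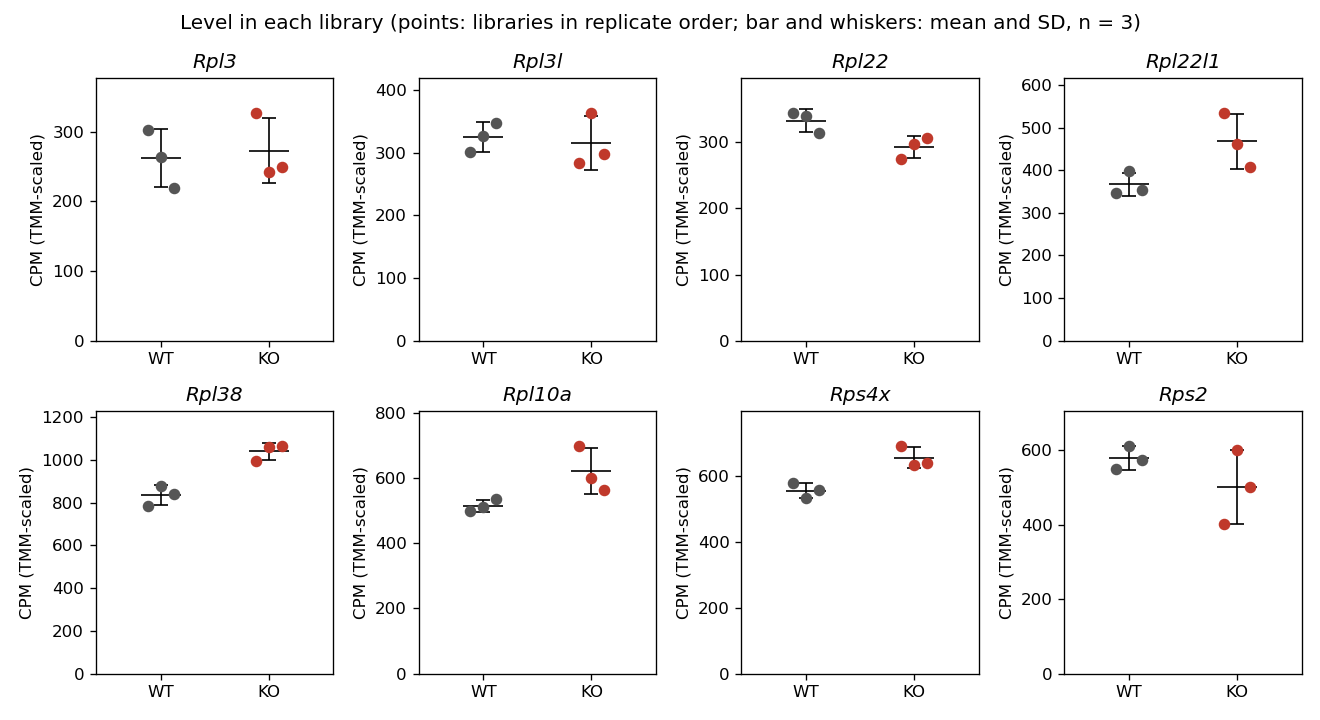
TMM-scaled CPM (y axis, from 0) of 8 ribosomal protein genes in each WT (grey) and KO (red) library, with the mean and SD (n = 3). Rpl3 and Rpl3l overlap between genotypes, Rpl22l1, Rpl38, Rpl10a and Rps4x lie higher in all KO libraries and Rpl22 lower, and Rps2 spreads from 402 to 599.8 CPM in KO.

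Members with known roles in regulation, and the stalk proteins, also did not pass. RPS6, the small subunit protein phosphorylated downstream of mTORC1, had an mRNA level of 1065 ± 1.72 CPM in WT and of 1200.5, 1089 and 1004 CPM in KO replicates 1 to 3. Its KO libraries lay on both sides of the WT level (log2 fold change 0.04, 95% interval -0.16 to 0.25). RPL5 and RPL11 bind MDM2 together with ribosomal RNA when ribosome assembly is disturbed. Rpl5 had 99.99, 94.7 and 97.2 CPM in WT and 122, 107 and 107 CPM in KO, every KO library above every WT library (log2 fold change 0.20, 95% interval -0.10 to 0.50), and Rpl11 had 675 ± 15.7 and 703 ± 55.0 CPM (log2 fold change 0.06). The stalk proteins that recruit elongation factors had values of both signs: Rplp0 had a log2 fold change of 0.09, Rplp1 of -0.09 and Rplp2 of -0.17, and none passed. Rplp2 had 909.9, 922 and 957 CPM in WT and 709, 882 and 885 CPM in KO, all below WT, with KO replicate 1 the lowest, and its log2 fold change was -0.07 without that library. With library totals Rplp1 and Rplp2 turned positive. Rpsa, also known as the laminin receptor precursor, had 362 ± 3.36 and 366 ± 14.7 CPM.

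Counts of members without overlap between genotypes were read against the background. The KO libraries all lay above WT for 19 tested members and all below for 8, together 33.3%, against 25.8% of all tested genes (13.5% above and 12.2% below). Among the 1046 tested genes of at least 100 CPM the share was 38.8%, with 158 above and 248 below, a median log2 fold change of -0.06 and the members counted among them. In the large subunit 13 were above and 8 below, and in the small subunit 6 above and 0 below. Among them Rpl8 went from 620 ± 5.03 to 568 ± 7.87 CPM, a difference larger than the SD within either genotype, yet its edgeR adjusted p was 0.509, and edgeR's estimate of the spread draws on genes of like level. The spread within a genotype, as the SD of log2(CPM + 1), had a median of 0.078 over the members, 0.147 over all genes of at least 100 CPM and 0.267 over all tested genes.

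Levels differed far more between members than between genotypes. Per kb of annotated transcript, WT levels had a median of 799 CPM per kb in the large and 695 in the small subunit. Rpl41, which encodes a very short basic peptide, was highest at 3561 CPM per kb (1937 ± 38.9 CPM in WT and 2111 ± 104 in KO), and Rplp1, Rps25, Rps27 and Rpl38 followed at 2364, 2302, 2293 and 2291. Rpl7l1 and Rpl5 were lowest at 13.4 and 47.6 CPM per kb. The values of Rps15a (177) and Rps20 (103) rest on annotated transcripts of 5130 and 3706 bases, far above the median member of 761, and would be higher with shorter ends. The order per kb depends on the division by length, and whether these read counts grow with transcript length was not tested. In WT, Rps27 (345 bases) and Rpl38 (364 bases) ranked 4 and 5 per kb but 26 and 23 by CPM. Rps15a ranked 76 per kb and 18 by CPM. In CPM, Rpl41, Rpl35 and Rplp0 were the highest large subunit genes, and Rpl5 and Rpl18 the lowest after Rpl7l1. Rps25, Rps14 and Rps6 stood at the top of the small subunit and Rps12, Rps10 and Rps21 at its foot (168, 229 and 260 CPM in WT). The order per kb was nearly the same in KO, with a Spearman correlation of 0.990 across 81 genes, which share libraries and are not independent.

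Because ribosomal protein mRNAs are short, fold changes were set beside those of other short transcripts. Outside the members, the 110 tested genes with transcripts of up to 600 bases had a median log2 fold change of -0.07, and the 486 of over 600 and up to 1000 bases one of -0.05. The members in these ranges (27 and 33 genes) had medians of 0.02 and 0.02. The members with a run of at least 6 pyrimidines at the start had a median of 0.03 (37 tested) and those without one of 0.01 (24 tested).

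Genes that build and regulate ribosomes were counted from lists. Of 47 tested ribosome biogenesis genes 1 rose and 0 fell, with a median log2 fold change of 0.06, where 2.96% of all tested genes rose and 3.28% fell; counts of 1 in lists of this size are near that background. The gene past the threshold was Rrp1, a nucleolar protein of ribosomal RNA processing, with 41.0, 49.7 and 46.6 CPM in WT and 78.4, 69.6 and 62.1 CPM in KO (edgeR adjusted p = 0.0418 for a log2 fold change of 0.61 with an SE of 0.17). The groups did not overlap, but leaving out any 1 library ended the call (adjusted p 0.056 to 0.176), as did DESeq2 (0.157) and limma-voom (0.058). Of 24 other genes whose mRNAs carry or are reported to carry a TOP element, among them elongation factors and the ribosomal proteins Fau, Rps3a1 and Rack1, 0 passed edgeR's test (3 at an unadjusted p under 0.05), with a median of 0.05. In DESeq2 1 passed as higher, Eif3f. Of 36 mTOR and translation control genes 1 rose and 0 fell (median 0.04).
That gene was Akt2, the insulin-responsive kinase upstream of mTORC1, at 61.9, 65.9 and 56.7 CPM in WT and 75.4, 96.7 and 123 CPM in KO (edgeR adjusted p = 0.0411 for a log2 fold change of 0.68 with an SE of 0.18). Leaving out any WT library, KO replicate 2 or KO replicate 3 ended the call (0.072 to 0.175), as did the fits with DESeq2 (0.084), limma-voom (0.076) and robust=FALSE (0.056). Ddit4l, an inhibitor of mTORC1 signalling, had 578, 577 and 514 CPM in WT and 1152, 712 and 741 CPM in KO, every KO library above WT and KO replicate 1 far above the others. It did not pass (edgeR adjusted p = 0.0586 for a log2 fold change of 0.64 with an SE of 0.17, or 0.39 without KO replicate 1), but it was the gene of the list that passed where Akt2 did not with DESeq2, with robust=FALSE and without KO replicate 2 or 3, and without WT replicate 3 that gene was Sesn1. Of 7 tested genes of ribosome quality control 1 fell and 0 rose (median -0.23). Map3k20, which encodes ZAK, a kinase activated by stalled and colliding ribosomes, had 130, 141 and 144 CPM in WT and 54.3, 70.2 and 62.1 CPM in KO. Its KO libraries were all far below WT (edgeR adjusted p = 0.000216 for a log2 fold change of -1.15 with an SE of 0.15), and the call held in each alternative run. The counts are per gene, so they do not tell isoforms of ZAK apart. A link of this fall to ribosome stalling was not tested.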

How the data were processed

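Nanopore cDNA reads of 6 libraries (3 WT, 3 KO, grouped by the labelled genotype) were used. The authors deposited whole-number read counts per gene, per the file headers, and minimap2 and DESeq2 1.6.3 are named in the submitters' processing notes. The read counter, its use of strand and the annotation release are each not given in the sources used for this text. CPM, log2 fold changes and all tests were computed here from the deposited counts.

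Genes passed edgeR's filterByExpr (minimum count 10, minimum total 15), leaving 6680. TMM scaling and the robust quasi-likelihood test of edgeR 4.0.16 (R 4.3.3) were used, with Benjamini-Hochberg adjustment over all tested genes. DESeq2 1.42.0, limma-voom 3.58.1, other scalings, other filters and leaving out each library were alternatives. Standard errors were derived from the F statistic, and intervals from the t distribution. The test was checked on simulated data. Paralog shares were compared by exact permutation. Transcript lengths and positions come from GENCODE M21 (GRCm38), using 1 principal coding transcript per gene. The labels give no pairing of libraries.

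Named genes were Rpl3, Rpl3l, other paralog pairs, the 5 highest and 5 lowest fold changes and the 3 highest and 3 lowest levels per subunit, the stalk and regulatory members, and list genes past the threshold. Rpl41, Rps27 and other genes named for level per kb, Eif3f, Eef1a1, Ddit4l and Sesn1 were chosen after their values were seen. Members and lists were chosen with earlier results of these data known.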

Additional observations from a re-analysis of the deposited data

How the results depend on the processing

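Of the members, 0 passed under each scaling, filter or tool run, except with library totals (12 large and 6 small subunit genes higher, medians 0.240 and 0.270) and without KO replicate 1 (1 large subunit gene, Rpl38). With library totals 649 of all genes were higher, as were 5 biogenesis, 5 TOP and 3 mTOR genes. The mTOR count was 2 higher with DESeq2 size factors, upper-quartile scaling, the 20 most abundant genes left out, a filter of 5 CPM and no filter (Ddit4l being the second gene), and 0 with limma-voom. With no filter 1 mTOR gene was lower, 2 TOP genes were higher and all genes gave 344 higher and 362 lower. The TOP count was 1 higher with upper-quartile scaling, DESeq2 and robust=FALSE, and the biogenesis count was 0 with DESeq2 and limma-voom. The causes were not tested.

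Leaving out each library gave a large subunit median of -0.023 to 0.025, 83 to 180 higher genes over the whole table (83 without WT replicate 2, 101 without WT replicate 1 and 129 without WT replicate 3), 0 to 1 large subunit genes higher, 0 biogenesis, 0 to 2 TOP and 0 to 2 mTOR genes higher and 0 to 1 mTOR genes lower. The difference in the Rpl3l share ran from -5.06 to 1.76 percentage points.

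With library totals the log2 fold change turned positive for Rpl3l (0.191), Rpl22 (0.0433), Rplp1 (0.139), Rplp2 (0.0591), Rpl7a (0.0861), Rpl8 (0.106), Rpl18 (0.200), Rps2 (0.0234), Rps20 (0.156), Rps15 (0.162), Rps29 (0.165), Rps26 (0.168) and Rps14 (0.223). For Rpsa it was -0.000833 with DESeq2 size factors, -0.00079 with DESeq2, -0.000728 with the 5 CPM filter and -0.0013 with the 20 most abundant genes left out. Signs also turned with 1 library left out for Rpl3 (-0.0889 to 0.147), Rpl3l (-0.162 to 0.0279), Rpl36al (-0.058 to 0.155), Rpl39 (-0.0111 to 0.0569), Rps27l (-0.0328 to 0.0952), Rpsa (-0.0196 to 0.0376), Rps6 (-0.0236 to 0.102), Rpl35 (-0.0485 to 0.0286), Rps10 (-0.0875 to 0.129), Rps21 (-0.0307 to 0.0982) and Rps14 (-0.0542 to 0.0197). No paired analysis was possible because the library titles share only 1 number between genotypes. A test with Rpl3 pseudogenes added was not run, since the table used here lists none. Counts of 0 to 12, as for Prr14 and Rpl39l, allow no firm direction at this depth.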

Other observations

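Some ribosomal protein genes lie outside the naming pattern. Rps3a1, a small subunit protein, was at 961 ± 23.4 CPM in WT and at 996 ± 51.3 CPM in KO, and Fau had 227 ± 11.3 and 235 ± 13.5 CPM. Rack1, the small subunit scaffold protein, was listed low for a ribosomal protein, at 25.7 ± 4.17 and 31.2 ± 5.77 CPM. Rps27rt, whose coding sequence is that of Rps27, held 466 ± 16.9 and 496 ± 24.8 CPM. Among pseudogenes, Rpl10-ps3 held 54.4 ± 2.10 and 50.2 ± 10.3 CPM, Rpl9-ps6 52.4 ± 3.87 and 50.8 ± 6.70 CPM and Rps12-ps3 46.9 ± 7.10 and 52.0 ± 4.65 CPM.

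Eif3f, a subunit of initiation factor eIF3, had 10, 9 and 13 counts in WT and 73, 70 and 21 in KO replicates 1 to 3. Every KO library was above WT, with KO replicate 3 far below the other KO libraries (edgeR adjusted p = 0.0586 for a log2 fold change of 2.15 with an SE of 0.54). It passed without KO replicate 3, with DESeq2, with upper-quartile scaling, with library totals, with no filter and with robust=FALSE. Eef1a1, an elongation factor gene, had 401, 298 and 287 CPM in WT and 643, 451 and 351 CPM in KO, and the groups overlapped (log2 fold change 0.55, edgeR adjusted p = 0.243). Its log2 fold change was 0.29 without KO replicate 1, and it passed with no filter (adjusted p = 0.000915) and without KO replicate 3 (0.0409, log2 fold change 0.74).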
